A study of Rattus norvegicus with 16 samples.

Results

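Voltage-gated and potassium channel genes were followed in hairy back skin of the rat after its nerves were cut. The members were all measured genes whose symbol starts with Kcn (potassium channels), Cacna, Cacnb or Cacng (calcium channels), or is Scn and a digit (sodium channels), without Scn7a. They numbered 110 of 14217 genes, or 0.774%. There were 11 sodium, 24 calcium and 75 potassium channel genes. The skin came from adult female Sprague-Dawley rats, 5 of them 7 days and 5 of them 14 days after the cutaneous nerves of the T9/10 dermatome had been cut and tied off, and 6 of them naïve, with no surgery. Each rat gave 1 Affymetrix Rat Genome array. The T11 nerves next to the denervated zone were left whole in the operated rats. The sources do not say whether the thin muscle under the skin was left on the samples. No operated animal with whole nerves was among the groups, so that the incision and the loss of the nerve cannot be told apart.

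Voltage-gated sodium channels open when a membrane depolarizes and carry the upstroke of the action potential in nerve and muscle. Voltage-gated calcium channels let calcium in on depolarization, and in skeletal muscle the calcium channel of the transverse tubule acts as the voltage sensor that releases calcium from the internal store. Potassium channels bring the membrane back toward rest and hold it there. They fall into voltage-gated channels, inward rectifiers, two-pore-domain leak channels and channels opened by calcium or sodium. Each pore-forming subunit can be joined by accessory subunits. In skin such channels are known from sensory nerve endings, blood vessels, the muscle under the skin, hair follicles, keratinocytes and immune cells.

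The deposited values were log2 signals from robust multi-array averaging (RMA), and all levels below are on that scale. Signals of different probesets do not give the relative amount of their transcripts, so that only differences between groups for 1 gene are compared. A gene was called near the lowest values when its mean over the 16 arrays was at most 4.78, which is 1 above the 1st percentile of the means of all genes. Each of the 3 comparisons was made by limma over all 14217 genes, and a gene passed at a Benjamini-Hochberg adjusted p under 0.05. Beside each adjusted p stands the log2 difference with its standard error (SE). In whole skin, fewer cells of a type and less RNA per cell cannot be told apart.

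Interfollicular keratinocyte markers averaged 10.21 to 11.12 on all arrays, so that markers of the labelled tissue were present throughout. The naïve arrays fell apart in other tissue markers. The 13 measured hair follicle genes had a mean level of 12.02 to 12.16 at 14 days and 9.26 to 11.82 at 7 days. In naïve skin replicates 1 and 2 stood at 11.99 and 12.28, while replicates 3 to 6 stood at 6.43 to 6.70. The 23 measured sarcomere genes of skeletal muscle were bright on all arrays, with a mean level of 10.36 to 12.38. Their score, which is the mean of each gene's level minus its mean over all arrays, was -0.85 to -0.52 at 14 days and -0.54 to 0.56 at 7 days. Naïve replicates 1 and 2 scored -0.15 and -0.77, while the other naïve arrays scored 0.77 to 1.16. The lowest correlation between arrays of a group was 0.972 at 7 days, 0.993 at 14 days and 0.912 in naïve skin. Results that follow this division are given below with it.

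Many channel genes gave signals near the floor of the arrays. Of the 110 members, 33 (30%) were near the lowest values, against 13.1% of all genes. The share was 36.4% of sodium (4 of 11), 29.2% of calcium (7 of 24) and 29.3% of potassium channel genes (22 of 75). Voltage-gated potassium alpha subunits made up 13 of those 22, out of 31. The median of the members' means was 5.34, against 6.91 over all genes, and 5 members (4.55%) had a mean above 8, against 28% of all genes. These were Cacna1s, Scn4b, Cacng1, Cacna2d1 and Kcnk6, and the first 4 are known from skeletal muscle. By group, 41 members (37.3%) were near the lowest values at 7 days, 29 (26.4%) at 14 days and 31 (28.2%) in naïve skin, while the shares over all genes were 14%, 12.5% and 13.2%. The shares rested on the limit. With a limit of 4.28 they were 10% of the members and 5.39% of all genes, and with 5.28 they were 50% and 21.2%.

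**Figure D1:**
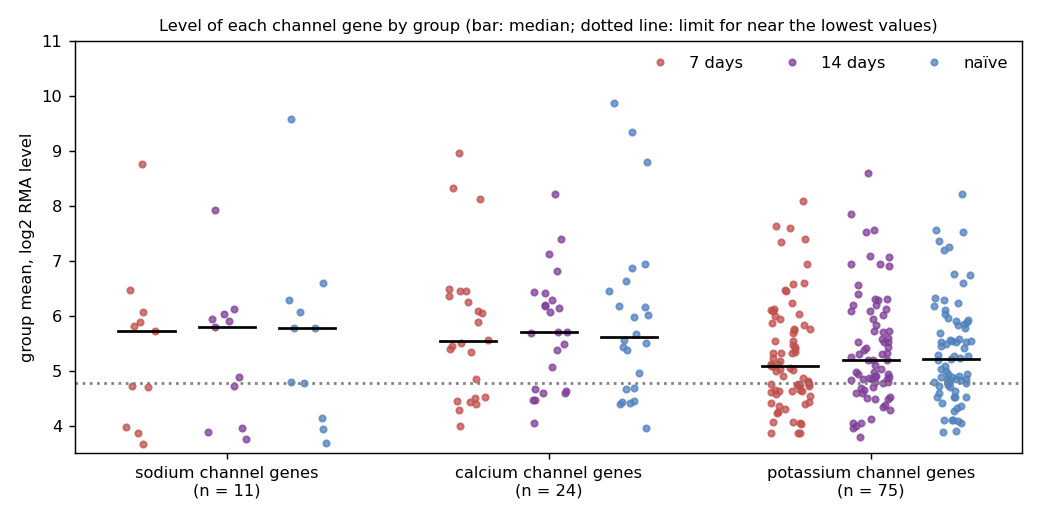
Group mean of each channel gene (log2 RMA level) for sodium, calcium and potassium channels at 7 days, at 14 days and in naïve skin, with a black bar at each median and a dotted line at 4.78. Most calcium and potassium channel genes lie between the dotted line and 7, while at 7 days 5 of the 11 sodium channel genes lie at or under it. Of the 110 members, 30% have a mean over all arrays at or under the line.

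Few members passed at 7 days and more at 14 days. At 7 days 3 members were higher than in naïve skin and 6 were lower, where 7.85% and 2.66% of all genes were called in those directions. At 14 days 13 were higher and 8 lower, where the background was 8.95% and 14.6%. As shares of the members these were 2.73% and 5.45% at 7 days, and 11.8% and 7.27% at 14 days, so that the share of higher genes at 7 days and of lower genes at 14 days was under the background and the other shares were over it. With the array median subtracted, 3 members were higher and 19 lower at 7 days, and 5 were higher and 8 lower at 14 days. After a further quantile normalization it was 5 and 7 at 7 days, and 5 and 9 at 14 days. No sodium or calcium channel gene passed limma at 7 days (0 of 11 and 0 of 24), where 10.5% of all genes passed in either direction. Of these, 2 sodium and 5 calcium channel genes had an unadjusted p under 0.05. Among potassium channel genes 3 (4%) were higher and 6 (8%) lower. At 14 days 1 sodium (9.09%) and 4 calcium channel genes (16.7%) were lower, near the 14.6% of all genes. A calcium channel gene (4.17%) was higher, while 12 potassium channel genes (16%) were higher and 3 (4%) lower. The sodium and calcium classes are too small for their counts to be set apart from the background. Only Kcnj8 and Kcnj16 passed at both times, and 82 members passed at neither. Both comparisons share the naïve arrays.

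Among sodium channels the only gene that passed was Scn4b, the beta4 subunit, which is known to be joined to the pore-forming subunit by a disulfide bond. Its level was 7.84, 7.77, 8.16, 7.87 and 8.05 at 14 days and 8.0, 9.32, 8.63, 8.91 and 9.02 at 7 days, against 7.97 to 10.65 (median 9.82) in naïve skin. Every 14 day array lay under 5 of the 6 naïve arrays, and the overlap came from naïve replicate 2 at 7.97. The difference at 14 days was -1.66 (SE 0.412, limma adjusted p = 0.0145), and at 7 days it was -0.82 (SE 0.412, adjusted p = 0.196). The call at 14 days held without any single array (adjusted p at most 0.0353), but was lost without naïve replicates 4 and 5 together (-1.13, adjusted p = 0.0711).

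The other sodium channel genes did not pass. Scn4a, the pore-forming channel of skeletal muscle, was at 5.70 to 6.22 at 14 days and 5.68 to 6.29 at 7 days, against 5.58 to 7.72 in naïve skin (14 days minus naïve -0.67, SE 0.302, adjusted p = 0.113). Another 3 pore-forming subunits are known from pain-sensing neurons, whose cell bodies lie in the ganglia, outside the sample. Scn9a (Nav1.7) was at 3.55 to 3.71 at 7 days, 3.71 to 3.83 at 14 days and 3.67 to 3.75 in naïve skin, all near the lowest values. Scn10a (Nav1.8) was at 5.91 to 6.19, 6.06 to 6.25 and 5.93 to 6.19 in the same order of groups, and Scn11a (Nav1.9) at 5.61 to 5.85, 5.69 to 6.03 and 5.54 to 6.10. The largest of their differences from naïve skin was 0.069, that of Scn9a at 14 days (adjusted p = 0.243), and their ranges overlapped. Of 15 measured neuron and axon markers, 7 were near the lowest values as well. Scn7a, a related gene outside the members that is known from glia, behaved otherwise: it was at 4.64 to 5.41 at 7 days and 4.67 to 5.51 at 14 days, against 5.66 to 8.71 in naïve skin, with no overlap (differences -2.55 and -2.40, adjusted p = 0.00493 and 0.00436).

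In the calcium channel class the genes that were lower at 14 days were Cacna1s, Cacna2d1, Cacng1 and Cacng6. Cacna1s encodes the pore and voltage sensor of the skeletal muscle channel, Cacna2d1 its alpha2delta1 subunit and Cacng1 its gamma1 subunit. Cacng6 encodes the related gamma6 subunit. Cacna1s was at 7.90, 8.20, 8.25, 8.28 and 8.44 at 14 days and 8.34, 9.69, 8.47, 9.12 and 9.23 at 7 days, against 7.83 to 11.01 (median 10.38) in naïve skin. Every 14 day array was under 5 of the 6 naïve arrays, and the overlap came from naïve replicate 2 at 7.83. The difference was -1.66 at 14 days (SE 0.472, adjusted p = 0.0245) and -0.91 at 7 days (adjusted p = 0.212).

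Cacng1 was at 7.12, 7.17, 7.44, 7.27 and 7.99 at 14 days and 7.53, 9.17, 7.87, 8.66 and 8.40 at 7 days, against 6.95 to 10.60 (median 9.94) in naïve skin (14 days -1.95, SE 0.554, adjusted p = 0.0247). Cacna2d1 was at 6.71, 7.08, 7.08, 7.33 and 7.47 at 14 days and 7.17, 8.69, 7.69, 8.61 and 8.46 at 7 days, against 6.72 to 10.14 (median 9.26) in naïve skin (-1.67, SE 0.508, adjusted p = 0.0309). Cacng6 was at 6.13, 6.10, 6.18, 6.01 and 6.28 at 14 days and 6.05, 6.53, 6.10, 6.33 and 6.27 at 7 days, against 6.11 to 7.64 (median 7.04) in naïve skin (-0.81, SE 0.225, adjusted p = 0.0229). In each of the 3 genes the 14 day and naïve ranges overlapped, with naïve replicate 2 within or below the 14 day values and the other 5 naïve arrays above all of them. Cacnb1, the beta1 subunit of the skeletal muscle channel, was at 6.14 to 6.41 at 14 days, against 6.0 to 7.58 in naïve skin, and did not pass (-0.59, adjusted p = 0.0759). Of its 2 probesets 1 passed (-0.68, limma adjusted p = 0.0333), and the other differed by -0.50 (adjusted p = 0.169).

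A pair of inward rectifiers known from muscle moved with them. Kcnj11 encodes Kir6.2, the pore of the ATP-sensitive potassium channel of skeletal muscle, and Kcnj12 encodes Kir2.2, which holds the resting potential. Kcnj11 was at 6.82, 6.63, 7.17, 7.02 and 7.12 at 14 days and 6.95, 8.24, 7.18, 7.84 and 8.02 at 7 days, against 6.61 to 9.28 (median 8.55) in naïve skin (14 days -1.27, SE 0.406, adjusted p = 0.0359). Kcnj12 was at 5.63, 5.51, 5.95, 5.74 and 5.83 at 14 days and 5.86, 6.63, 5.82, 6.03 and 6.10 at 7 days, against 5.62 to 7.77 (median 6.92) in naïve skin (-1.04, SE 0.306, adjusted p = 0.0273). Here too the naïve values of replicates 1 and 2 lay within or near the 14 day range, and those of replicates 3 to 6 lay above it. Kcnj2, the Kir2.1 rectifier, was dim at 4.91 to 5.09 at 14 days, against 4.65 to 4.89 in naïve skin, and did not pass (0.18, adjusted p = 0.0734).

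**Figure D2:**
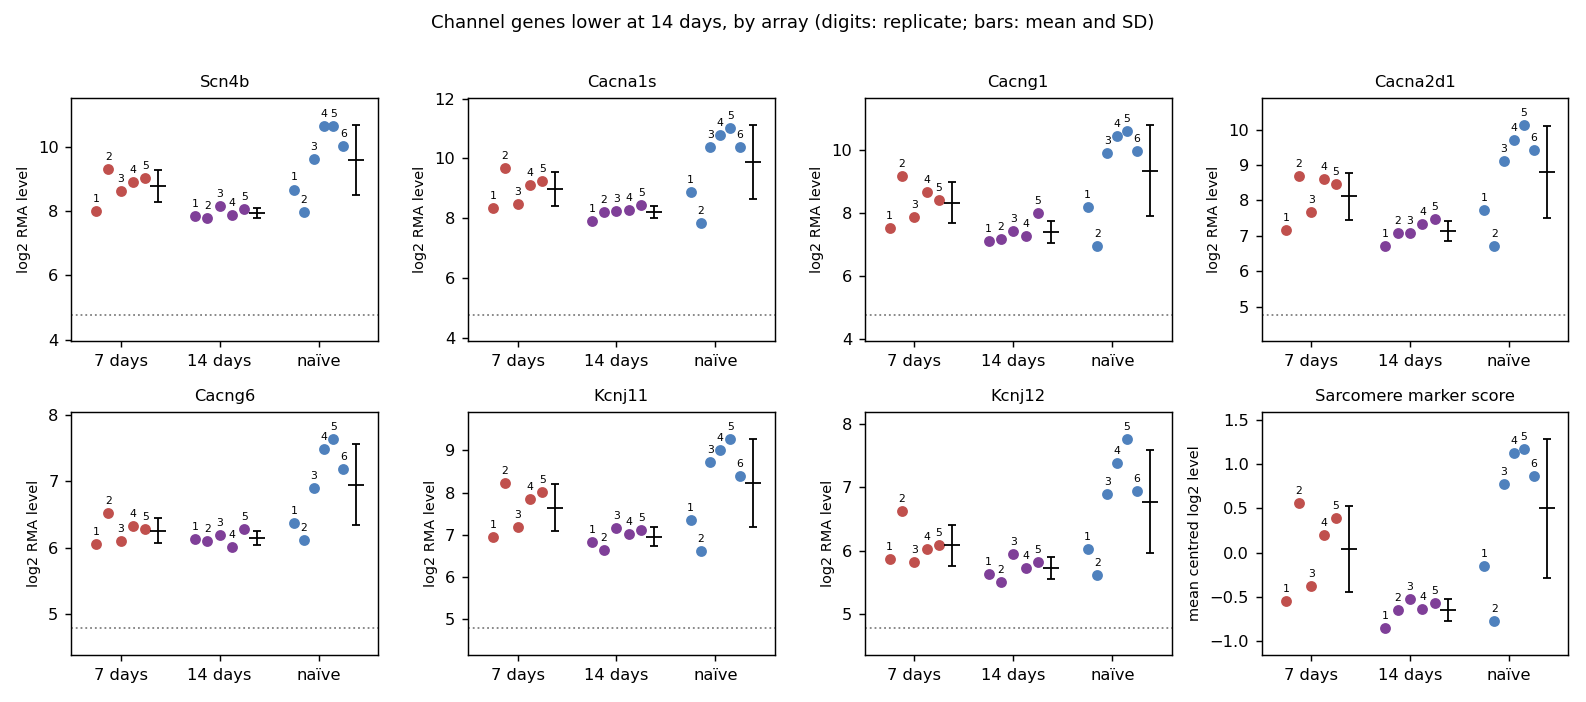
Log2 RMA level of the 7 channel genes of muscle that passed at 14 days, and the sarcomere marker score, with 1 point per array at 7 days, at 14 days and in naïve skin, digits for the replicate, bars for mean and SD, and a dotted line at 4.78. In every panel naïve replicate 2 lies at the 14 day level and naïve replicates 3 to 6 lie above all 14 day arrays.

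The sarcomere genes moved the same way as these channel genes. Of 23 measured, 17 were lower at 14 days and none was higher, with a median difference of -1.04. The sarcomere score followed the same division of naïve arrays. When the fit held that score, or that of the hair follicle genes, as a covariate, 0 members passed limma as lower at 14 days, and 0 had an unadjusted p under 0.05. Both scores divided the naïve arrays. The hair follicle score was 1.81 to 1.95 at 14 days, against 1.78 and 2.07 in naïve replicates 1 and 2. In naïve replicates 3 to 6 it was -3.79 to -3.51. The only naïve arrays with scores near those at 14 days were thus replicates 1 and 2. Such a fit separates the 14 day difference from the score poorly, and a lost call does not give its cause. Without naïve replicates 1 and 2, 16 members were lower. Without naïve replicates 4 and 5 none was, with 7 at an unadjusted p under 0.05. Replicates 1 and 2 had the lowest sarcomere scores of the naïve arrays, and replicates 4 and 5 the highest (1.13 and 1.16). Leaving out either pair thus moves the naïve mean of genes that follow the score, and leaves fewer naïve arrays. Single arrays also decided calls. Cacng6 was lost without naïve replicate 4 or 6 or 14 day replicate 4 (adjusted p up to 0.0545), and Cacna1s without naïve replicate 4, 5 or 6 or 14 day replicate 1 (up to 0.0586). Cacng1 was lost without naïve replicates 4, 5 or 6 or 14 day replicates 1, 2 or 4 (up to 0.0589), and Kcnj12 without those or 14 day replicate 5 (up to 0.0643). Cacna2d1 and Kcnj11 were lost without any of naïve replicates 3 to 6 or any 14 day array (up to 0.0722 and 0.0838). How much muscle each sample held was not measured apart from these genes, and its part in the result was not tested.

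Partners of the muscle calcium channel were in part lower at 14 days as well. Of 32 measured genes of excitation-contraction coupling outside the members, 17 were lower at 14 days, none was higher and 15 did not pass, with a median of -0.70. At 7 days 2 were higher and 1 lower. These genes too divided the naïve arrays, since their score was -0.62 to -0.28 at 14 days, while naïve replicates 1 and 2 scored -0.24 and -0.73 and the other naïve arrays 0.43 to 1.05. Ryr1, the calcium release channel, was at 9.30 to 9.88 at 14 days, against 9.52 to 12.11 in naïve skin (-1.63, adjusted p = 0.0153). Stac3, which is needed for the voltage sensor to reach the membrane and work, was at -1.97 (adjusted p = 0.0204), Hrc, a calcium-binding protein of the store, at -1.84 (adjusted p = 0.0175) and Orai1, the store-operated calcium channel, at -0.68 (adjusted p = 0.0219). Among 32 channel anchors and accessory proteins, 4 were higher and 4 lower at 14 days, with a median of -0.00069. Akap9, a scaffold for protein kinase A, was at 6.33 to 6.63 at 14 days, below every naïve array at 6.74 to 7.42 (-0.56, adjusted p = 0.00562). Fgf13, which binds the sodium channel tail, was at 6.97 to 7.27, also below every naïve array at 7.38 to 8.92 (-1.10, adjusted p = 0.0098). Ank3, the ankyrin that clusters sodium channels at axon segments, was at -0.52 (adjusted p = 0.0221), and Nfasc, a cell adhesion protein of the node, was higher by 0.20 (adjusted p = 0.0224).

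Promoters of the genes that fell together at 14 days were read for the binding letters of muscle regulators. Basic helix-loop-helix factors such as MyoD bind the E-box, CANNTG, and are known to favor its form CAGCTG in muscle. The motifs were searched on both strands, CAGCTG being one form of CANNTG. RefSeq promoters of the GRCr8 assembly, 250 bases before to 50 after the start, were at hand for 77 of the 110 members and for 5 of the 8 that were lower at 14 days, which are Scn4b, Cacna1s, Cacng6, Cacna2d1 and Kcnj16. CAGCTG was found in 15.1% of 27457 promoters, in 24.7% of those of the members and in 2 of the 5. CANNTG was found in 71.6%, in 70.1% and in 4 of the 5, and the MEF2 site in 3.37%, in 1.3% and in none of the 5. Those of Scn4b (chr8:54343623-54343922, plus strand), Cacna1s (chr13:50045418-50045717, plus strand) and Cacng6 (chr1:74662704-74663003, minus strand) are shown for the muscle genes. Those of Kcnj8 (chr4:177246499-177246798, minus strand) and Kcne4 (chr9:87695798-87696097, plus strand), both higher at 7 days, are shown for comparison. Capitals mark each CANNTG.
Scn4b: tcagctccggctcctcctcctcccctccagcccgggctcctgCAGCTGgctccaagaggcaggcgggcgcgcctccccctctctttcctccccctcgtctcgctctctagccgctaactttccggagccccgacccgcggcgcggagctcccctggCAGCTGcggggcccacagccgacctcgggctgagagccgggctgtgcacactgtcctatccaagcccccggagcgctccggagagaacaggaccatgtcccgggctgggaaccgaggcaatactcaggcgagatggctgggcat
Cacna1s: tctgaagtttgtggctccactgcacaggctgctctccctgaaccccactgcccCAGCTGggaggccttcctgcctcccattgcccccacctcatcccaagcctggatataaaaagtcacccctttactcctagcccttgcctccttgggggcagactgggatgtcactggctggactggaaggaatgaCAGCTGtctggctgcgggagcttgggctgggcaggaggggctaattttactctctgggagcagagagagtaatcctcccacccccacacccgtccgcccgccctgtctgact
Cacng6: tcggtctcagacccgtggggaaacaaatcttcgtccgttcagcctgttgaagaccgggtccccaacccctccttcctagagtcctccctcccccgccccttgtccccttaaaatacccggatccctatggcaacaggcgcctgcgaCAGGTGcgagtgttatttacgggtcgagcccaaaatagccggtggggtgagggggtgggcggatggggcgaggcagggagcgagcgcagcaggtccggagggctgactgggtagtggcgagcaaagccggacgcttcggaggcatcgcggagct
Kcnj8: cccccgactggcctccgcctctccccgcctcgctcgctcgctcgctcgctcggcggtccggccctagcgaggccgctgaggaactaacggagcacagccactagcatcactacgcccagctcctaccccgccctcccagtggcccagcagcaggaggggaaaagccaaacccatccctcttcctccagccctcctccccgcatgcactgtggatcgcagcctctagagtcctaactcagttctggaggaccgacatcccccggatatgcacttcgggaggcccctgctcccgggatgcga
Kcne4: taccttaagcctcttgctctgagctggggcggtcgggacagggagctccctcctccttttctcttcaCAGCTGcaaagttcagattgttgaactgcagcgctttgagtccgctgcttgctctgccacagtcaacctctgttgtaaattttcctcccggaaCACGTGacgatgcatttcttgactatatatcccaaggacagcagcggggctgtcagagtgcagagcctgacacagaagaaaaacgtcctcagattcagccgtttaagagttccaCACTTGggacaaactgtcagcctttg
The windows of Scn4b and Cacna1s held 2 E-boxes each, all of the form CAGCTG, and the window of Cacng6 held 1 of another form. The window of Kcnj8 held none and that of Kcne4 held 3, of which 1 was CAGCTG. Of the windows not shown, that of the muscle gene Cacna2d1 held none and that of Kcnj16 held 1. Binding was not measured.

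The clearest change at 7 days was a rise of Kcnj8. It encodes Kir6.1, the pore of the ATP-sensitive potassium channel of vascular smooth muscle and pericytes. Its level was 6.20, 7.06, 6.45, 6.92 and 6.26 at 7 days and 6.38, 6.01, 6.03, 6.05 and 6.20 at 14 days, against 5.16 to 6.09 (median 5.64) in naïve skin. All 7 day arrays lay above all naïve arrays, while at 14 days the ranges overlapped. The difference was 1.0 at 7 days (SE 0.182, adjusted p = 0.00515) and 0.55 at 14 days (SE 0.182, adjusted p = 0.0397). The rise at 7 days held without any single array (adjusted p at most 0.0172). That at 14 days was lost without naïve replicate 4, 5 or 6 or any 14 day array (adjusted p up to 0.0918). Kcnj8 was the only member above every naïve array at 7 days and Kcnj1 the only one below, where 3.31% and 1.35% of all genes were so placed.

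Markers of several other cell types differed at 7 days. Of 12 markers of vascular smooth muscle and pericytes, 2 were higher, none was lower and 10 did not pass, with a median of 0.066. Those that passed were Rgs5 by 0.89 (adjusted p = 0.0317) and Mcam by 0.63 (adjusted p = 0.0315). The mean level of the list was 7.90 to 8.36 at 7 days, inside its naïve range of 7.72 to 8.37. Of 11 endothelial markers, 7 were higher and none lower, with a mean level of 7.29 to 7.94, against 6.82 to 7.54 in naïve skin. Of 19 macrophage and myeloid markers, 14 were higher and none lower, with a median of 1.34 and a mean level of 7.92 to 8.74 at 7 days, against 6.06 to 8.21 in naïve skin. Of 10 fibroblast markers, 5 were higher and none lower, with a median of 1.06 and a mean level of 11.75 to 12.60, against 9.36 to 11.75 in naïve skin. Naïve replicates 4 and 5 were the lowest arrays in both of these lists and in Kcnj8. Abcc9, which encodes the sulfonylurea receptor that joins Kir6.1, was at 6.34 to 7.19 at 7 days, against 6.03 to 7.32 in naïve skin, and did not pass (-0.081, adjusted p = 0.835). The part of these cell types in the rise of Kcnj8 was not tested.

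Another 2 potassium channel genes rose at 7 days. Kcnd1 encodes the A-type channel Kv4.1, which opens briefly below the action potential threshold. It was at 5.86, 6.08, 5.72, 6.38 and 6.14 at 7 days and 5.62, 5.37, 5.66, 5.57 and 5.68 at 14 days, against 5.35 to 5.83 (median 5.48) in naïve skin (0.54, SE 0.112, adjusted p = 0.00952). A naïve array, replicate 3, lay among the 7 day values, and every 14 day array lay below every 7 day array. Kcnd1 was the only member lower at 14 than at 7 days (-0.46, adjusted p = 0.018). Its rise held without any single array (adjusted p at most 0.0287), but not without naïve replicates 4 and 5 together (adjusted p = 0.0521).

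Kcne4, an accessory subunit known to inhibit Kv7.1 and Kv1.3 channels, was at 6.87, 7.45, 7.47, 7.69 and 7.57 at 7 days and 7.24, 6.82, 6.84, 7.34 and 7.12 at 14 days, against 6.35 to 7.17 (median 6.70) in naïve skin (0.66, SE 0.165, adjusted p = 0.0217). The 7 day replicate 1 lay inside the naïve range and the other 4 arrays above it. The call was lost without naïve replicate 4 or 7 day replicate 3 or 4 (adjusted p up to 0.0688).

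Of the 6 genes that were lower at 7 days, Kcnk2 had the largest difference. It encodes TREK-1, a leak channel opened by stretch, heat and lipids and known from sensory neurons and smooth muscle. It was at 6.79, 6.46, 6.45, 6.31 and 7.0 at 7 days and 7.16, 7.06, 7.12, 7.02 and 7.11 at 14 days, against 6.82 to 7.58 (median 7.15) in naïve skin (-0.61, SE 0.135, adjusted p = 0.0123). The 7 day range overlapped the naïve range, and each 14 day array lay above each 7 day array. At 14 days the difference from naïve skin was -0.12 (adjusted p = 0.545). Its 2 probesets differed by -0.92 (adjusted p = 0.00894) and -0.30 (adjusted p = 0.10) at 7 days. The call of the gene held without any single array (adjusted p at most 0.0425), but not without naïve replicates 4 and 5 together (-0.45, adjusted p = 0.0682).

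Kcna1 encodes Kv1.1, a delayed rectifier of axons. It was at 5.38, 5.24, 5.38, 5.51 and 5.70 at 7 days and 5.71, 5.79, 5.89, 5.79 and 5.97 at 14 days, against 5.53 to 6.13 (median 5.88) in naïve skin (-0.42, SE 0.112, adjusted p = 0.0287). Kcnb2, which encodes the delayed rectifier Kv2.2, was at 5.15, 5.39, 5.06, 5.32 and 5.24 at 7 days and 5.61, 5.76, 5.56, 5.44 and 5.60 at 14 days, against 5.30 to 5.68 (median 5.56) in naïve skin (-0.30, SE 0.08, adjusted p = 0.0272). In both genes the 7 day and naïve ranges overlapped, and all 14 day arrays lay above all 7 day arrays. Kcna1 was lost without naïve replicates 4, 5 or 6 or 7 day replicates 1, 2, 3 or 4 (adjusted p up to 0.0674), and Kcnb2 without naïve replicate 4 or 5 or 7 day replicate 1 or 3 (up to 0.0752).

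**Figure D3:**
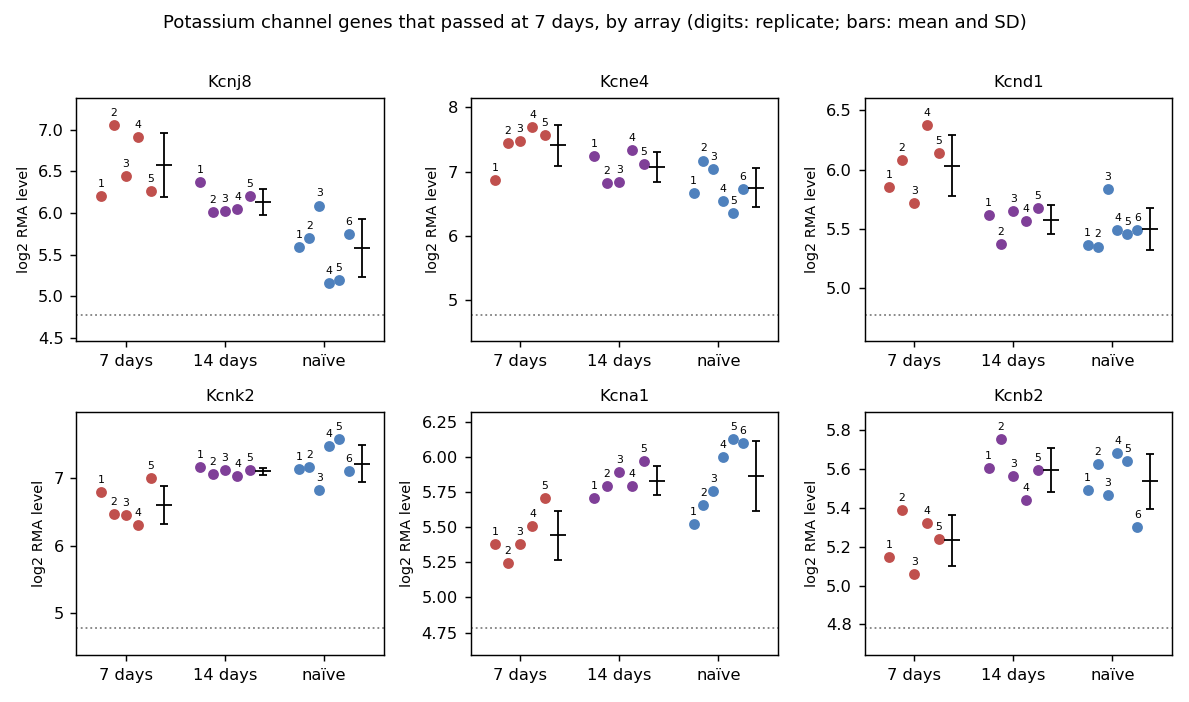
Log2 RMA level of 6 potassium channel genes that passed at 7 days, with 1 point per array at 7 days, at 14 days and in naïve skin, digits for the replicate, bars for mean and SD, and a dotted line at 4.78. Kcnj8 has all 7 day arrays above all naïve arrays, while Kcnk2, Kcna1 and Kcnb2 have all 14 day arrays above all 7 day arrays.

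The other 3 genes that were lower at 7 days were dim. Kcnj16, the Kir5.1 rectifier, was at 4.51 to 4.78 at 7 days and 4.61 to 4.80 at 14 days, against 4.63 to 5.26 in naïve skin, and was lower at both times (-0.37 and -0.34, adjusted p = 0.0266 and 0.0257). Of its 2 probesets 1 passed at both times (-0.59 and -0.55, limma adjusted p = 0.0217 and 0.0154). The other differed by -0.16 and -0.13 (adjusted p = 0.172 and 0.202). Kcnh8, of the ether-a-go-go-like family, was at 4.50 to 4.84 at 7 days, against 4.67 to 5.05 in naïve skin (-0.24, adjusted p = 0.0488). Kcnj1, the Kir1.1 rectifier of kidney, was at 3.84 to 3.89 at 7 days, against 3.96 to 4.18 in naïve skin (-0.19, adjusted p = 0.0188), near the lowest values in all groups. Kcnj1 and 2 other members near the lowest values in all groups passed, Cacng4 and Kcnv1 at 14 days (0.20 and 0.18). These 3 lay outside the rule for named genes and are named after their values were seen. Kcnj16 was lost at 7 days without naïve replicates 4, 5 or 6 or 7 day replicates 1, 3, 4 or 5 (adjusted p up to 0.0643), and at 14 days without naïve replicate 4 or 6 or 14 day replicates 1, 2, 3 or 5 (up to 0.0604). Kcnh8 was lost without any of 14 single arrays, that is all but naïve replicate 1 and 7 day replicate 5 (up to 0.134). The 7 day calls of Kcnj16, Kcnh8 and Kcnb2 were also lost when the median deviation of genes of like level was taken off each array. That setting was chosen after the data were seen. At 7 days 22.1% of all genes near the lowest values differed from naïve skin by more than 0. Among all genes above that limit and up to 6 it was 33.5%.

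The 2 largest rises at 14 days were in genes that divided the naïve arrays. Kcnk6 encodes TWIK-2, a two-pore-domain channel known from macrophages, vessels and epithelia. It was at 8.70, 8.47, 8.72, 8.64 and 8.53 at 14 days and 8.56, 7.80, 8.04, 8.20 and 7.91 at 7 days, against 6.64 to 8.98 (median 7.30) in naïve skin. Naïve replicates 1 and 2 were at 8.50 and 8.98, within or above the 14 day range, and the other naïve arrays at most at 7.41. The difference at 14 days was 1.04 (SE 0.35, adjusted p = 0.0433). Its probesets differed by 1.16 and, in the brighter, by 0.93 (limma adjusted p = 0.0278 and 0.0704). Kcng2, a silent subunit that joins Kv2 channels, was at 6.60, 7.19, 7.09, 6.94 and 6.73 at 14 days and 6.90, 5.71, 6.37, 6.28 and 5.90 at 7 days, against 5.87 to 7.01 (median 5.99) in naïve skin (0.68, SE 0.233, adjusted p = 0.0479), with naïve replicates 1 and 2 at 6.64 and 7.01. The probesets of Kcng2 differed by 0.83, 0.68 and 0.097 at 14 days (limma adjusted p = 0.0252, 0.045 and 0.396).

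Kcne1, an accessory subunit of Kv7.1, had a larger difference and did not pass. It is named here after its values were seen. It was at 8.39, 7.84, 7.90, 7.69 and 7.44 at 14 days and 6.84, 5.52, 6.07, 5.35 and 6.81 at 7 days, against 5.17 to 8.32 (median 5.53) in naïve skin (1.56, SE 0.561, adjusted p = 0.0551), with naïve replicates 1 and 2 at 8.32 and 7.99. All its 14 day arrays lay above all 7 day arrays (1.73, adjusted p = 0.0505). In all 3 genes the naïve arrays with high values were those with high hair follicle genes. Of 13 hair follicle genes 12 were higher at 14 days and none was lower, with a median of 3.82. In a fit with the score of these genes as covariate, the difference of Kcnk6 was -0.074 (adjusted p = 0.869). As stated above, such a fit separates the 14 day difference from the score poorly, with only naïve replicates 1 and 2 near the 14 day scores. Kcnk6 was lost without naïve replicates 3 to 6, 7 day replicate 3 or 4, or any 14 day array (adjusted p up to 0.0979). Kcng2 was lost without any of those or 7 day replicate 5 (up to 0.105). The part of the hair follicles in these rises was not tested further.

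**Figure D4:**
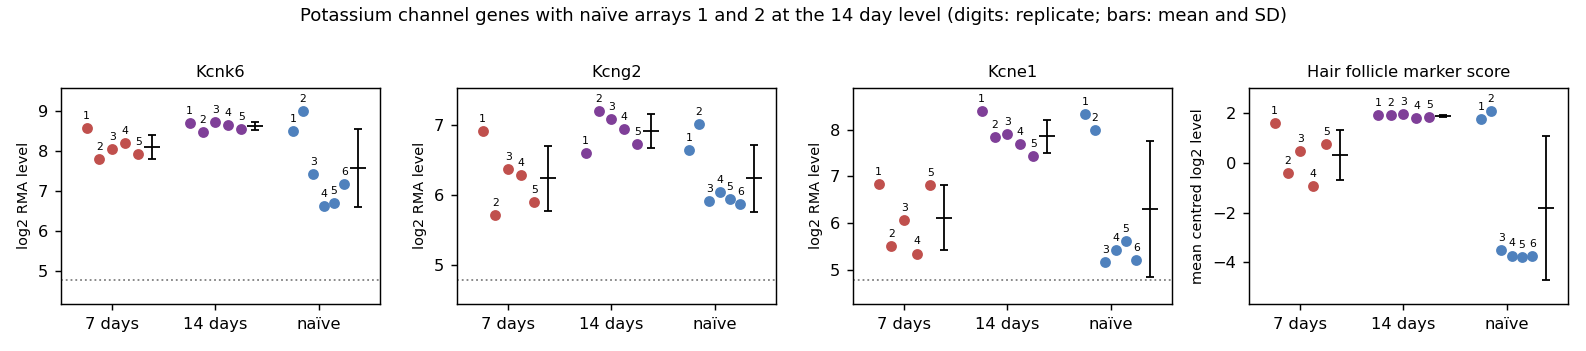
Log2 RMA level of Kcnk6, Kcng2 and Kcne1, and the hair follicle marker score, with 1 point per array at 7 days, at 14 days and in naïve skin, digits for the replicate and bars for mean and SD. Naïve replicates 1 and 2 lie near the 14 day arrays in each panel and naïve replicates 3 to 6 lie below them.

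A pair of other two-pore-domain channels also rose at 14 days. Kcnk3 encodes TASK-1, a leak channel closed by acid. It was at 6.31, 6.34, 6.45, 6.31 and 6.13 at 14 days and 6.11, 5.76, 5.85, 5.90 and 6.07 at 7 days, against 5.79 to 6.09 (median 5.92) in naïve skin, with every 14 day array above every naïve array (0.38, SE 0.0793, adjusted p = 0.00636). Naïve replicates 1 and 2 were the highest naïve arrays here too, at 6.09 and 6.01, while replicates 3 to 6 were at 5.79 to 5.98. The call held without any single array (adjusted p at most 0.0193). It was lost when the fit held the hair follicle score (0.23, adjusted p = 0.181) or the sarcomere score (0.26, adjusted p = 0.175). These fits separate the group from the score poorly, as stated above. Of its 3 probesets 1 passed, at 0.49 (adjusted p = 0.0337), and the others differed by 0.09 and 0.067. Kcnk13, the THIK-1 channel known from microglia, was at 5.98, 6.07, 6.0, 5.90 and 6.17 at 14 days and 5.74, 5.79, 5.69, 5.97 and 5.66 at 7 days, against 5.42 to 6.01 (median 5.63) in naïve skin (0.34, SE 0.0927, adjusted p = 0.0215). Its ranges overlapped, and it was lost without 14 day replicate 5 (adjusted p = 0.0562) and with the hair follicle or sarcomere score as a covariate (adjusted p = 0.0801 and 0.106).

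The remaining named potassium channel genes that were higher at 14 days had small differences at low levels. Kcna3, the Kv1.3 channel known from T lymphocytes, was at 4.95 to 5.09 at 14 days, above every naïve array at 4.81 to 4.91 (0.18, adjusted p = 0.0333). Kcnh1 and Kcnh4, of the ether-a-go-go family, differed by 0.35 and 0.20 (adjusted p = 0.0427 and 0.0346), and Kcnq3, a subunit of the neuronal M channel, by 0.17 (adjusted p = 0.0426). Kcns2, a silent subunit, differed by 0.14 (adjusted p = 0.0495), and Kcnj4, the Kir2.3 rectifier, by 0.18 (adjusted p = 0.0338). Each of these 6 calls was lost without any of 7 or more single arrays, with adjusted p up to 0.122. Each was also lost when the median deviation of genes of like level was taken off each array, a setting chosen after the data were seen. Of all genes above 4.78 and up to 6, 10.8% were called higher at 14 days than in naïve skin, against 11.1% of such members. Near the lowest values it was 7.86% of all genes and 9.09% of members. Of 13 members higher at 14 days, 8 had a mean at or under 6. In all, 6 members lay above every naïve array at 14 days and none below, where 3.69% and 6.66% of all genes did.

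The named genes that passed in neither comparison with naïve skin included channels of smooth muscle, heart and immune cells. Cacna1c, the L-type channel of heart and smooth muscle, was at 5.37 to 5.96 at 7 days, 5.30 to 5.47 at 14 days and 5.18 to 5.56 in naïve skin. Cacna1d, the L-type channel of endocrine cells and sinus node, was at 4.33 to 4.49, 4.40 to 4.55 and 4.29 to 4.50 in that order, near the lowest values. Cacna1h, a T-type channel known from fine hair afferents, was at 5.44 to 5.62, 5.61 to 5.85 and 5.53 to 6.01. The calcium-activated channels Kcnma1 (BK) and Kcnn3 (SK3) were at 4.57 to 5.10 and 5.16 to 5.44 at 14 days, against 4.52 to 6.01 and 5.15 to 6.39 in naïve skin, where naïve replicates 4 to 6 held the highest values in both. Their differences at 14 days were -0.36 and -0.46 (adjusted p = 0.239 and 0.0789). The 3 probesets of Kcnma1 did not move alike. Of these 1 was lower at 14 days (-1.44, limma adjusted p = 0.0233), and the others differed by 0.12 and -0.23 and did not pass. Kcnn4, the intermediate-conductance channel of lymphocytes and red cells, differed by 0.15 at 7 days (adjusted p = 0.21), and Kcnc1, a fast delayed rectifier, was near the lowest values in all groups at a mean of 4.07.

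Between the times, many dim channel genes stood slightly higher at 14 than at 7 days. In this comparison 25 members were higher and 1 lower, where 8.86% and 10.1% of all genes were called in those directions. These were 22.7% and 0.909% of the members. By class, 5 calcium (20.8%) and 20 potassium channel genes (26.7%) were higher, and 11 of the 20 were voltage-gated alpha subunits. No sodium channel gene was higher (1 at an unadjusted p under 0.05 in limma). The differences of the 25 ran from 0.14 to 0.49, with a median of 0.26, and 21 of the 25 had a mean at or under 6. On 21 members every 14 day array lay above every 7 day array and on 1 below, where 9.07% and 11.6% of all genes did. The largest difference was that of Kcnk2 (0.49, adjusted p = 0.0276). The smallest adjusted p were those of Kcnh4 (0.34, adjusted p = 0.00521) and Cacng5 (0.30, adjusted p = 0.00908), a subunit known to join AMPA receptors. Kcnk5 (TASK-2) and Kcnq1 (Kv7.1), both known from epithelia, differed by 0.40 and 0.43 (adjusted p = 0.0309 and 0.0236). Kcnk5 also divided the naïve arrays, with replicates 1 and 2 at 5.70 and 5.93 and replicates 3 to 6 at 5.25 to 5.32. Its 14 day arrays were at 5.63 to 5.86.

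Dim genes of other kinds shifted in this direction as well. Of 46 measured genes of other tissues, 15 (32.6%) were higher at 14 than at 7 days and none was lower, 43 differed by more than 0, and the median was 0.14, against 22.7% and a median of 0.12 for the members. Among all genes near the lowest values the median difference between 14 and 7 days was 0.0945, with 80.7% above 0 and 15.2% called higher. Among members near the lowest values it was 0.106, with 87.9% above 0 and 15.2% (5 of 33) called higher. Among genes above that limit and up to 6, the median was 0.16 for the members and 0.0971 for all genes, with 35.6% and 17.6% called higher. Among genes over 8 it was -0.127 for all genes. When the median deviation of genes of like level was taken off each array, 9 members were higher, 8 of them among the 25. The alternative was chosen after the data were seen. The member medians by array went the same way, at 5.31 to 5.42 on 14 day arrays, 5.12 to 5.28 on 7 day arrays and 5.22 to 5.37 on naïve arrays.

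**Figure D5:**
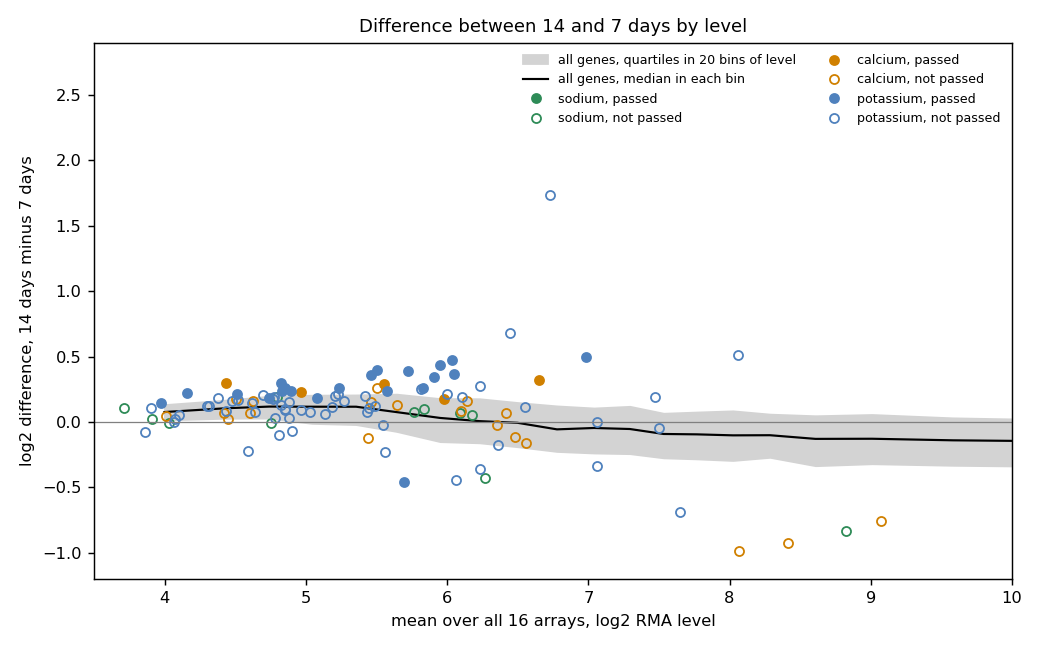
Log2 difference between 14 and 7 days of each channel gene (vertical axis) against its mean level over the 16 arrays (horizontal axis), with filled points for genes that passed, and the median and quartiles of all genes in 20 bins of level (line and grey band). The line lies above 0 at low levels and below 0 at high levels, and most channel genes at or under 6 lie above 0.

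Other ion channels outside the members showed no common direction. Of 38 measured cation and chloride channel genes, 3 were higher and none lower at 7 days, and 7 were higher and 4 lower at 14 days. Piezo1, the mechanically gated channel of vessels and other cells, was higher at both times (0.47 and 0.32, adjusted p = 0.00689 and 0.0247). Ano5, known from skeletal muscle, was lower at 14 days (-1.99, adjusted p = 0.0233), as was Ano1, the calcium-activated chloride channel (-0.85, adjusted p = 0.0397). Scnn1a, a subunit of the epithelial sodium channel, was higher (0.50, adjusted p = 0.0256).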

How the data were processed

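Skin RNA of 16 rats was hybridized to Affymetrix Rat Genome arrays. Signals were put on the log2 scale by the authors with RMA and deposited for each probeset. The submitters' processing notes name R 3.0.1. The version of the RMA software was not given in the sources used here. Of 31099 probesets, 57 controls, 9780 without a gene and 436 with several genes were left out. A gene's value was the median of its probesets, of which 42 members had several. Comparisons used limma 3.58.1 in R 4.3.3, with 1 mean per group over all arrays and Benjamini-Hochberg adjustment over 14217 genes. The script was tested on simulated data. Named by rule were members that passed against naïve skin with a group mean above 4.78 (25 of 28), 21 fixed channel genes, 8 partner genes and Scn7a. Kcnk5, Kcnq1, Cacng5, Piezo1, Ano5, Ano1, Scnn1a, Rgs5, Mcam and Abcc9 lay outside this rule and were named with their values known. The members and lists were chosen with earlier results of these data known. Nothing states how p-values relate to separate cohorts of rats, so they measure the spread between these samples. The alternatives changed the probeset rule, dim genes, scaling, array weights, moderation, arrays, covariates, threshold and a block for the replicate number. The number of arrays limits the precision.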

Additional observations from a re-analysis of the deposited data

Results flagged for a closer look

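In 10 of 123 groups of values, 1 array lay far from the others of its group by Dixon's criterion, which flags about 5% of groups by chance. At 7 days these were Kcnh1 in replicate 5 (6.31, against 5.65 to 5.84 in the others), Cacna1c in replicate 4 (5.96, against 5.37 to 5.44) and Kcnma1 in replicate 2 (5.03, against 4.64 to 4.75). At 14 days they were Kcnj16 in replicate 4 (4.80, against 4.61 to 4.65), Scn11a in replicate 1 (6.03, against 5.69 to 5.78), Cacna1h in replicate 5 (5.85, against 5.61 to 5.68) and Kcnj2 in replicate 5 (5.09, against 4.91 to 4.96). The median of the potassium channel genes was low in 14 day replicate 2 (5.14, against 5.22 to 5.24). In naïve skin they were Kcnd1 in replicate 3 (5.83, against 5.35 to 5.49) and Cacna1h in replicate 5 (6.01, against 5.53 to 5.65).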

How the results depend on the processing

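The counts of channel genes that passed, and at 14 days and 7 days the balance of higher and lower genes, depended on the settings. At 7 days 3 members had passed as higher and 6 as lower, at 14 days 13 and 8, and between the times 25 and 1. With array weights, 5 passed as higher and 21 as lower at 7 days, 25 and 15 at 14 days, and 41 and 5 between the times. In fits of only the compared groups they were 1 and 0 at 7 days, 8 and 5 at 14 days, and 7 were lower between the times. With the array median subtracted, 19 were lower at 7 days, 5 higher at 14 days and 39 higher between the times. After a further quantile normalization, 5 were higher at 7 days, 5 higher at 14 days, and 10 higher and 2 lower between the times. With medians of genes of like level subtracted, a setting chosen after the data were seen, 5 passed as higher and 3 as lower at 7 days, 3 as higher at 14 days, and 9 and 2 between the times. With the sarcomere score as a covariate, 6 were higher at 7 days, 1 higher and 0 lower at 14 days, and 0 lower between the times. With the hair follicle score it was 6 higher at 7 days, and 1 higher and 0 lower at 14 days. In both scores only naïve replicates 1 and 2 were near the 14 day arrays, so these fits separate the score and the group poorly. At an adjusted p under 0.01, 0 passed as lower at 7 days, 1 as higher and 0 as lower at 14 days, and 2 and 0 between the times. Without naïve replicates 1 and 2, 27 were lower at 7 days, 16 lower at 14 days and 7 lower between the times. Without naïve replicates 4 and 5, 1 passed as higher and 0 as lower at 7 days, against 2 and 0 at 14 days. Taking probesets singly gave 20 higher at 14 days and 3 lower between the times, and the mean over probesets gave 2 lower between the times. With single arrays left out, the counts of higher genes ran from 2 to 4 at 7 days, from 2 to 15 at 14 days and from 11 to 34 between the times, and those of lower genes from 2 to 13, from 1 to 13 and from 1 to 3. The lowest count of lower genes at 14 days came without naïve replicate 4 or 6, and the highest without naïve replicate 2. The lowest counts between the times came without 7 day replicate 2 or 3.

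The labels tie the replicate numbers to no shared litter, batch or day. Of 15 same-numbered pairs 8 correlated above 0.1 in their deviations and 7 did not, with a range of -0.552 to 0.583, so that the numbers were not taken as pairs. A fit with the replicate block gave 1 higher and 1 lower at 14 days, and its other counts were within 1.5 times of those without it. The difference at 14 days changed sign with the sarcomere score as a covariate in Cacna1s (0.038), Cacng1 (0.012), Cacna2d1 (0.14), Kcnj11 (0.17), Kcnk6 (-0.14) and Kcng2 (-0.040), and with the hair follicle score in Kcnk6 (-0.074). The share near the lowest values was 90.9% of sodium, 79.2% of calcium and 89.3% of potassium channel genes with a limit of 6.56, the 90th percentile of genes of other tissues. With a limit of 4.28 it was 4.17% of calcium and 9.33% of potassium channel genes, and with 5.28 it was 56% of potassium channel genes. Where no value is given for a cause of these shifts, the cause was not tested. Dim signals limit the size of differences that can be read in these genes.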
